A study of Mus musculus with 15 samples.

Results

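The genes described here are 10 genes whose transcription is driven by RAS-ERK signaling or that feed back on it. They are the dual-specificity phosphatase genes Dusp4, Dusp5 and Dusp6, the Sprouty genes Spry2 and Spry4, the transcription factor genes Etv4, Etv5, Egr1 and Fosl1, and Phlda1. They were chosen by name, with earlier results of these data known, as were the lists of pathway genes used further below. All 10 were found among the 34432 genes listed in each of the 2 tables of normalized counts. Each treated group was compared with its own controls. Messenger RNA was sequenced from CT26 cells, a mouse colon carcinoma line, in 5 groups of 3 biological replicates each. In the knockdown experiment, cells labelled Ctrl knockdown (shControl) were compared with cells labelled Prmt1 knockdown (shPrmt1). The shPrmt1 cells carried a doxycycline-inducible hairpin in a stable line made by lentiviral infection and selection, and doxycycline was given for 3 days. Whether the shControl cells also received doxycycline is not stated in the sources used here. In the inhibitor experiment, WT cells received Vehicle, MS023 or GSK3368715 for 48 hours. MS023 and GSK3368715 inhibit type I protein arginine methyltransferases and were given at 6 µM. PRMT1 is the main enzyme of that type. Both experiments were done in a single cell line, without immune or stromal cells.

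In the ERK cascade, active RAS recruits RAF kinases, which activate MEK and then the ERK kinases. ERK switches on immediate-early genes such as Egr1 within minutes, and a slower set of genes that includes Fosl1, Etv4, Etv5 and Phlda1. Among its targets are its own inhibitors, the DUSP phosphatases and the Sprouty proteins, so that the transcript levels of these genes are widely read as a measure of ERK output.

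Of the 10 genes, 4 had a promoter in the RefSeq table used here (build GRCm38.p6, 250 bases before to 50 bases from the start site): Dusp5, Dusp6, Spry2 and Etv5, the last with a pair of start sites, which gave 5 promoters. The 5 promoters were searched on both strands for 6 motifs of factors that act below ERK. Positions are counted from the RefSeq start site. The CArG box, bound by serum response factor, was found in 1.63% of all 32851 promoters, and in that of Dusp5, where 2 boxes lay side by side 82 and 72 bases before the start site. The octamers TGAATGAA, TGAATGGA, TCAATGAA and TCAATGGA, counted as a single motif, that of the ERK-controlled repressor Capicua (Cic), were found in 3.84% of all promoters. They were found in the promoter of Spry2, 54 bases before the start site, and in that of Dusp6, where 2 copies began 24 bases before and 1 base after it. The last 2 octamers were added to that motif after the promoters had been read, and the first 2 alone (2.47% of all promoters) were found in none of the 5. The AP-1 motif TGANTCA (7.81% of all promoters), the CRE motif TGACGTCA (1.79%), the ETS motif CCGGAAG (8.86%) and the EGR motif GCGNGGGCG (5.55%) had no match in these 5 windows. No match overlapped another. The matches in Dusp6 and Spry2 read on the opposite strand, so the capitals there show the reverse complement of an octamer. The stretches below show the matches in capitals with 15 bases on each side, and a match is a description of letters only. All 4 genes with a promoter were called lower with MS023, Etv5 without a match among them. Matches therefore cannot be related to the changes below.
Dusp5, chr19:53529048-53529097, plus strand: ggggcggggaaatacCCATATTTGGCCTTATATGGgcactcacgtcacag
Dusp6, chr10:99263192-99263254, plus strand: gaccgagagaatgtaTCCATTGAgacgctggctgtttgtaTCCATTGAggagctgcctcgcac
Spry2, chr14:105896851-105896888, minus strand: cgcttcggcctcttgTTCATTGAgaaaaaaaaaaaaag

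All 10 genes were well expressed in control cells. Per kilobase of exon, the order in shControl cells was Fosl1 (1074 ± 58.2 normalized counts per kb, mean ± SD, n = 3), Phlda1 (928 ± 44.8), Dusp4 (838 ± 6.47), Dusp6 (678 ± 17.2), Etv4 (622 ± 37.5), Spry4 (419 ± 13.1), Etv5 (298 ± 12.4), Spry2 (262 ± 16.2), Dusp5 (217 ± 6.87) and Egr1 (211 ± 0.157). Of neighbours in that order, only Dusp5 and Egr1 had overlapping libraries. In vehicle-treated cells the order per kilobase was Dusp4 (2832 ± 112), Phlda1 (2558 ± 60.6), Dusp6 (2238 ± 55.9), Fosl1 (2141 ± 252), Etv4 (1686 ± 85.4), Etv5 (1054 ± 38.4), Spry2 (906 ± 53.0), Spry4 (778 ± 37.0), Egr1 (492 ± 27.9) and Dusp5 (387 ± 57.6). Here only Dusp6 and Fosl1 overlapped. The tables of the 2 experiments were normalized separately, so levels cannot be compared between them. The bar plot of control levels shows both orders.

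**Figure D1:**
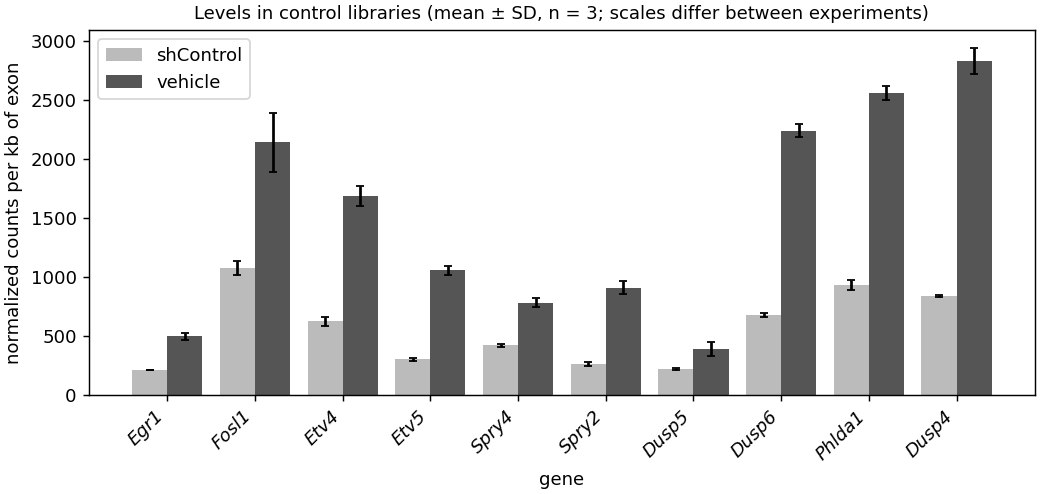
Normalized counts per kilobase of exon (vertical axis) of the 10 genes (horizontal axis) in shControl (light bars) and vehicle (dark bars) libraries. Bars are means and error bars SD over 3 libraries. Fosl1 was highest in shControl (1074 ± 58.2) and Dusp4 in vehicle (2832 ± 112), on scales that differ between the experiments.

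The libraries held 17284091 to 29233738 reads on genes in the knockdown experiment and 40119305 to 93697833 in the inhibitor experiment. The targeted gene, Prmt1, stood at 5601, 5717 and 5620.1 normalized counts with the control hairpin and 669, 761 and 683 with the Prmt1 hairpin. It was not called in either inhibitor comparison (log2 fold change -0.07 ± 0.06 with MS023, adjusted p = 0.351, and -0.01 ± 0.06 with GSK3368715, adjusted p = 0.914). Of the 7 epithelial and colon markers, 2 reached 10 normalized counts in at least 1 shControl library and 4 in at least 1 vehicle library. Against the label of colon tumor cells, Epcam was at 0 in every library. Cdh1, the epithelial cadherin, stayed at or below 2.29 normalized counts. The keratin genes Krt18 and Krt20 were expressed (means of 572 and 178 normalized counts in shControl and 941 and 389 in vehicle). The 7 epithelial and colon markers summed to 724 to 810.0 normalized counts in shControl and 541 to 660 in shPrmt1, and to 1243 to 1412 in vehicle, 1758 to 1851 in MS023 and 1406 to 1591 in GSK3368715. Krt18 moved with these sums, to means of 431 in shPrmt1, 1372 in MS023 and 1137 in GSK3368715. Krt20 had means of 173, 405 and 341 there, so the sums do not describe the markers as a set. The part of these differences in the results below was not tested. The 4 mesenchymal genes, Vim among them, summed to at least 77637 in every library, and the 6 leukocyte markers to at most 28.1.

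The first comparison asked whether loss of Prmt1 changes the output genes of the ERK cascade. In shPrmt1 cells 4 of the 10 genes were called, all of them lower: Egr1, Fosl1, Spry4 and Dusp4. A gene is called when its adjusted p from limma, over the 11485 genes tested, is under 0.05. Of all genes tested, 14.7% were called, 7.17% lower and 7.50% higher. Lower genes made up 48.9% of all calls, and 38.1% when every library was scaled to the same total, where 4 of the 10 genes were again called. Of the 10 genes, 7 passed an unadjusted p under 0.05 (31.2% of all genes), edgeR called 4 (14.9%) and DESeq2 5 (18.7%), the last including Phlda1 as higher. The median log2 fold change of the 10 genes was -0.23, against -0.0036 over all genes tested. Values are shares of a library, so less of a transcript per cell and fewer cells that express it cannot be told apart.

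Egr1 (ENSMUSG00000038418, chr18:34859823-34864984, plus strand, mm10), a zinc-finger transcription factor and immediate-early gene, had 946, 945 and 944 normalized counts in shControl replicates 1, 2 and 3, against 517, 558 and 531 in those of shPrmt1. The control libraries lay within 2 counts of each other and every knockdown library was far below them. It fell to 56.6% of the control mean (log2 fold change -0.82 ± 0.07 (SE), adjusted p = 0.000314), and kept its call under all 14 alternatives. Fosl1 (ENSMUSG00000024912, chr19:5447547-5455946, plus strand), which encodes the AP-1 subunit FRA1, had 2195, 2061 and 2296 in shControl and 1671, 1058 and 1629 in shPrmt1. The groups did not overlap, and shPrmt1 replicate 2 was well below the other two. Fosl1 fell to 66.5% of control (log2 fold change -0.62 ± 0.16 (SE), adjusted p = 0.0376), and to a log2 fold change of -0.40 without that library (adjusted p = 0.00211).

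Of the feedback inhibitors, Spry4 (ENSMUSG00000024427, chr18:38586247-38601415, minus strand), which restrains RAS activation by receptor tyrosine kinases, had 2055, 1930.2 and 1996 in shControl and 1619.8, 1631 and 1619.9 in shPrmt1. It fell to 81.4% of control, with knockdown libraries that nearly coincided (log2 fold change -0.30 ± 0.06 (SE), adjusted p = 0.0145). Dusp4 (ENSMUSG00000031530, chr8:34807297-34819894, plus strand), a nuclear phosphatase of ERK, had 2288, 2315 and 2282 in shControl and 1951, 1993 and 1896 in shPrmt1. The groups did not overlap, and Dusp4 fell to 84.8% of control (log2 fold change -0.24 ± 0.06 (SE), adjusted p = 0.0288). With 1 library left out, the number of the 10 genes called moved with that of all genes. It was 1 without shControl replicate 1 (652 of 11405 genes tested), 2 without shControl replicate 2 (883 of 11388) and 1 without shControl replicate 3 (723 of 11405). It was 3 without shPrmt1 replicate 1 (1274 of 11358), 5 without shPrmt1 replicate 2, with Phlda1 as higher (2472 of 11368), and 2 without shPrmt1 replicate 3 (1072 of 11347). Dusp4 lost its call in each of these except that without shPrmt1 replicate 2 (adjusted p 0.0659 to 0.12), Fosl1 without any shControl library (0.0807 to 0.123), and Spry4 without shControl replicate 1 (0.0878), shControl replicate 3 (0.0753) or shPrmt1 replicate 3 (0.0507).

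The other 6 genes were not called in the knockdown. The PEA3-family ETS factor genes lay below control in every library. Etv4 (ENSMUSG00000017724, chr11:101769742-101785371, minus strand) had 2053, 1919 and 1821 in shControl and 1694, 1246 and 1754 in shPrmt1 (log2 fold change -0.32 ± 0.13 (SE), adjusted p = 0.13), with the lowest value again in shPrmt1 replicate 2, without which the log2 fold change was -0.16. Etv5 (ENSMUSG00000013089, chr16:22381309-22439719, minus strand) had 1257, 1166 and 1249 in shControl and 1073, 1005 and 1078 in shPrmt1 (log2 fold change -0.22 ± 0.07 (SE), adjusted p = 0.071). The groups of Phlda1 and Dusp6 did not overlap either, but lay the other way. Phlda1 (ENSMUSG00000020205, chr10:111506286-111508645, plus strand), a pleckstrin-homology domain protein, had 2069.9, 1938 and 2132 in shControl and 2479, 2230.3 and 2422 in shPrmt1 (log2 fold change 0.22 ± 0.07 (SE), adjusted p = 0.073), and was called higher without shPrmt1 replicate 2 (adjusted p = 0.0121). Dusp6 (ENSMUSG00000019960, chr10:99263231-99267489, plus strand), the cytoplasmic ERK phosphatase, had 2106, 2185 and 2082 in shControl and 2293, 2473 and 2199 in shPrmt1 (log2 fold change 0.13 ± 0.07 (SE), adjusted p = 0.234). Groups overlapped for Dusp5 (ENSMUSG00000034765, chr19:53529109-53542431, plus strand), a nuclear ERK phosphatase with 536, 554 and 519.7 in shControl and 545, 441 and 500.2 in shPrmt1 (adjusted p = 0.436 from limma). They also overlapped for Spry2 (ENSMUSG00000022114, chr14:105891947-105896819, minus strand), with 532, 586 and 524 in shControl and 589, 537 and 538 in shPrmt1 (adjusted p = 0.898). In all, the groups of 8 genes did not overlap, 6 lower and 2 higher, where 38.0% of all genes tested did not overlap. The plot by library shows these values beside those of the inhibitors.

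**Figure D2:**
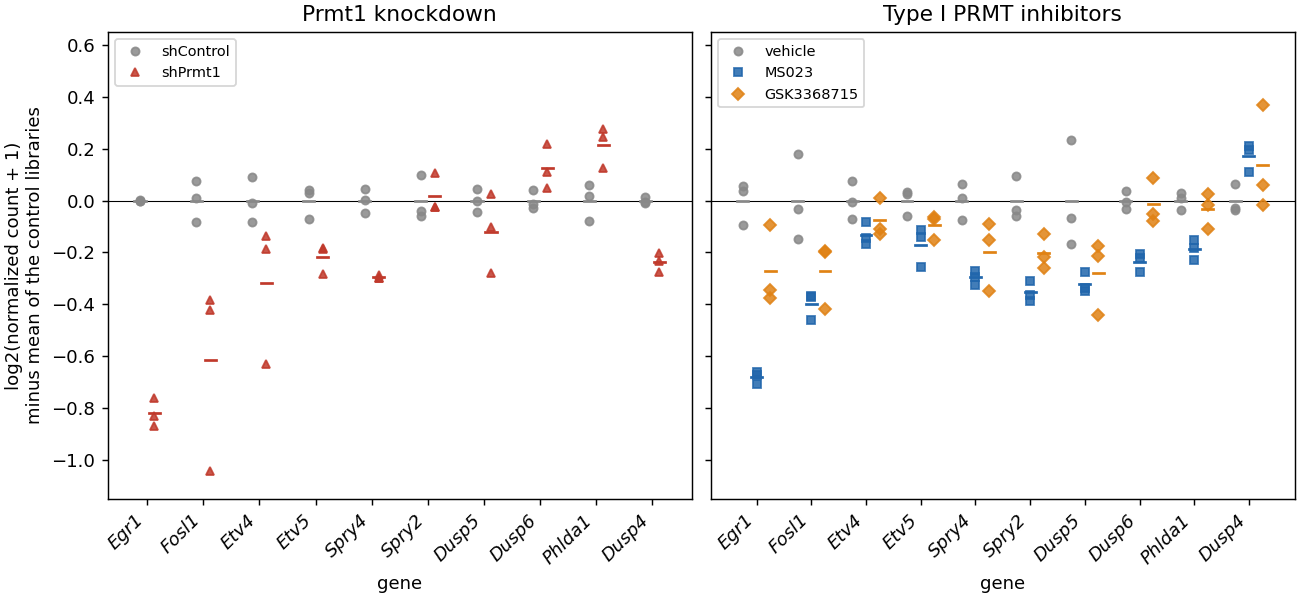
Log2(normalized count + 1) of each library minus the mean of its control libraries (vertical axis) for the 10 genes (horizontal axis), with the knockdown on the left and the inhibitors on the right. Each symbol is a library and each short line a group mean (n = 3). Egr1 was lower in every shPrmt1 and MS023 library, whereas Phlda1 and Dusp6 lay above control in shPrmt1 and below it in MS023.

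In the second comparison, MS023 against vehicle, 8 of the 10 genes were called, all of them lower. Of the 13014 genes tested in this experiment 27.9% were called, 14.1% lower and 13.7% higher. Lower genes made up 50.8% of all calls, and 40.7% with equal library totals, where 5 of the 10 genes were called and Dusp5, Etv5 and Phlda1 were not. Of the 10 genes, 9 passed an unadjusted p under 0.05 (40.2% of all genes), edgeR called 7 (27.8%) and DESeq2 8 (30.9%). All 10 genes had groups that did not overlap, 9 lower and 1 higher, against 44.5% of all genes tested. The median log2 fold change of the 10 genes was -0.27, against 0.0028 over all genes tested.

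Among the transcription factor genes, Egr1 had the largest change. It had 2296, 2263 and 2065 normalized counts in vehicle libraries and 1349.6, 1382 and 1393 in MS023 libraries, which lay close together and well below every vehicle library. It fell to 62.3% of the vehicle mean (log2 fold change -0.68 ± 0.08 (SE), adjusted p = 0.000255). Fosl1 had 3906, 4911 and 4241 in vehicle, where replicate 2 was the highest, and 3152, 3348 and 3359.6 in MS023. It fell to 75.5% (log2 fold change -0.40 ± 0.09 (SE), adjusted p = 0.0075). Etv5 had 4430.2, 4144 and 4402 in vehicle and 3621, 3919 and 4001 in MS023, a fall to 88.9% that barely passed the threshold (log2 fold change -0.17 ± 0.06 (SE), adjusted p = 0.0474). Etv4 was not called, with 4979, 5209 and 5508 in vehicle and 4734, 4934 and 4653 in MS023 (adjusted p = 0.118 from limma).

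Both Sprouty genes fell with MS023. Spry2 had 2018, 1814 and 1842 in vehicle and 1524, 1469 and 1443 in MS023, a fall to 78.2% (log2 fold change -0.35 ± 0.06 (SE), adjusted p = 0.0028). Spry4 had 3515, 3865 and 3720.4 in vehicle and 2952, 3065 and 3018 in MS023, a fall to 81.4% (log2 fold change -0.30 ± 0.07 (SE), adjusted p = 0.0108). Of the phosphatase genes, 2 of 3 were called. Dusp6 had 7199.5, 6979 and 6854 in vehicle and 5787, 6068 and 6010.1 in MS023 and fell to 84.9% (log2 fold change -0.24 ± 0.06 (SE), adjusted p = 0.0098). Dusp5 had 847, 1118 and 908 in vehicle and 752, 747 and 786 in MS023 (log2 fold change -0.32 ± 0.11 (SE), adjusted p = 0.0493), where vehicle replicate 2 was the highest library. Dusp4, by contrast, had 8111, 7558 and 7609.7 in vehicle and 8384, 8876 and 8973 in MS023. Its MS023 libraries were all above the vehicle libraries but it was not called (log2 fold change 0.17 ± 0.09 (SE), adjusted p = 0.164). Dusp4 was called higher under 2 of 18 alternatives. Among them was the fit without GSK3368715 replicate 2, which enters the estimate of the spread (adjusted p = 0.0331 from limma). Phlda1 had 5753, 5493 and 5677 in vehicle and 4965, 5075 and 4814 in MS023 and fell to 87.8% (log2 fold change -0.19 ± 0.05 (SE), adjusted p = 0.0214).

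Egr1, Fosl1, Spry2, Spry4 and Dusp6 kept their MS023 calls under every alternative run, and the other 3 did not. Dusp5 was not called without vehicle replicates 2 or 3, any 1 of the MS023 libraries, or GSK3368715 replicates 1 or 3 (adjusted p 0.0548 to 0.141), and its log2 fold change without vehicle replicate 2 was -0.20. Etv5 was called in none of the fits that left out a library other than vehicle replicate 2 (0.0524 to 0.163). Phlda1 was not called without vehicle replicates 1 or 3 or MS023 replicates 1 or 3 (0.0511 to 0.0819). The number called was 5 without vehicle replicate 3, MS023 replicate 1 or MS023 replicate 3. The normalized counts of 6 of the genes are drawn by library.

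**Figure D3:**
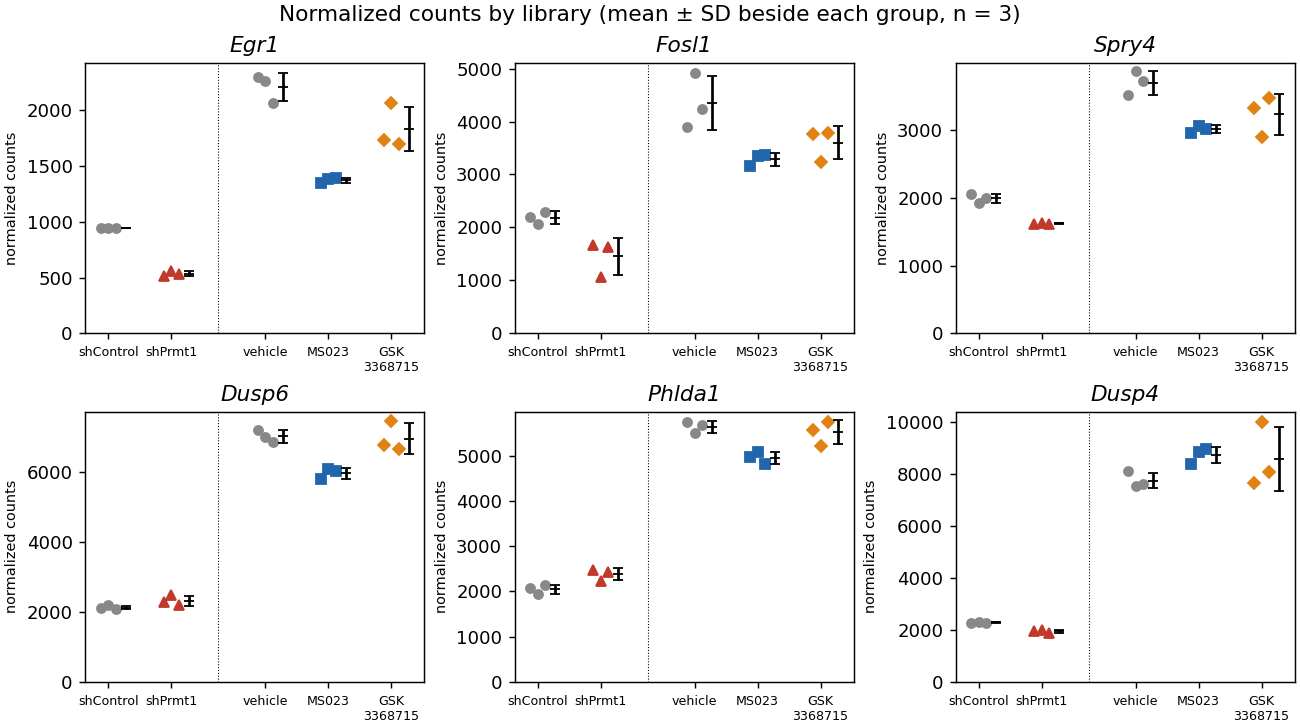
Normalized counts (vertical axes, from 0) of 6 of the 10 genes in each library of the 5 groups, with the group mean ± SD (n = 3) beside the symbols. The dotted line separates the experiments, which were normalized separately. Dusp6 in MS023 (5787, 6068 and 6010.1) lay below all vehicle libraries, whereas Dusp4 in MS023 (8384, 8876 and 8973) lay above them.

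In the third comparison, GSK3368715 against vehicle, none of the 10 genes was called by limma, where 9.64% of all genes tested were (4.47% lower and 5.16% higher). At an unadjusted p under 0.05, 5 of the 10 passed, against 26.1% of all genes. edgeR also called 0 and DESeq2 called 3, namely Egr1, Fosl1 and Spry2, against 9.54% and 13.8% of all genes. Of the 10 log2 fold changes 9 were negative, with a median of -0.15 against 0.00042 over all genes tested. The vehicle libraries were those used for MS023, so the estimates for the inhibitors share their error.

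Egr1 had 1736, 2065 and 1698 normalized counts in GSK3368715 libraries against the vehicle values above, with replicate 2 at the level of vehicle replicate 3 and the others well below (log2 fold change -0.27 ± 0.08 (SE), adjusted p = 0.0572). Without GSK3368715 replicate 2 it was called, at a log2 fold change of -0.36 and an adjusted p of 0.0176. Fosl1 had 3772, 3239.7 and 3789, all below vehicle (log2 fold change -0.27 ± 0.09 (SE), adjusted p = 0.0803), and was called without vehicle replicate 1 (-0.35, adjusted p = 0.0349). Spry2 had 1623, 1728 and 1578 (log2 fold change -0.20 ± 0.06 (SE), adjusted p = 0.075) and Spry4 3324, 2899 and 3475 (log2 fold change -0.20 ± 0.07 (SE), adjusted p = 0.105), also without overlap with vehicle.

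Dusp5 had 819, 699 and 842 (log2 fold change -0.28 ± 0.11 (SE), adjusted p = 0.134). Etv5 had 3891, 4117 and 4137, just below vehicle (adjusted p = 0.325 from limma). These 6 genes were those whose groups did not overlap, all lower, where 27.7% of all genes tested did not overlap. For 3 of them the gap was narrow. The highest GSK3368715 library and the lowest vehicle library had 2064.57 and 2064.64 for Egr1, 841.7 and 846.9 for Dusp5, and 4137 and 4144 for Etv5. Etv4 (5268, 4777 and 4848), Phlda1 (5576, 5223 and 5743) and Dusp6 (6758, 7447 and 6637) overlapped with vehicle, with log2 fold changes of -0.08, -0.03 and -0.01. Dusp4 had 7670.0, 10006 and 8083, with replicate 2 far above the others (log2 fold change 0.14 ± 0.09, adjusted p = 0.355). GSK3368715 replicate 2 was the highest or the lowest library of its group for each of the 10 genes except Etv5.

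**Figure D4:**
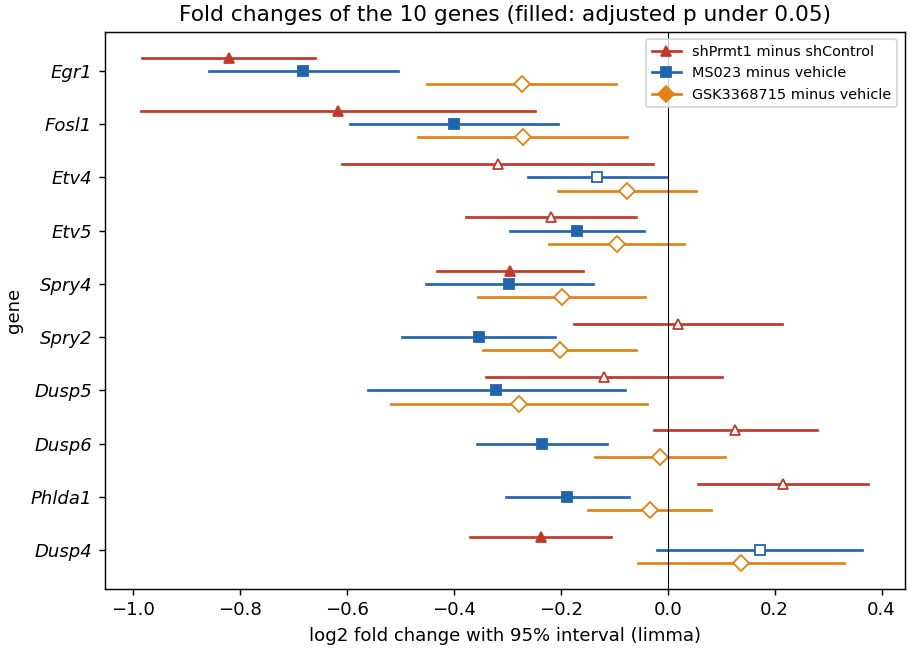
Log2 fold changes (horizontal axis) with 95% intervals from limma for the 10 genes (vertical axis) in shPrmt1 against shControl, MS023 against vehicle and GSK3368715 against vehicle. Filled symbols were called at an adjusted p under 0.05, which holds for 4, 8 and 0 genes. Egr1 was lowest in the knockdown (-0.82) and with MS023 (-0.68).

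Both inhibitors were given at the same dose and for the same time. The libraries do not measure how far each inhibited its targets. A difference between the compounds and a difference in the degree of inhibition therefore cannot be told apart. GSK3368715 minus MS023 gave 9 positive log2 fold changes among the 10 genes, with a median of 0.11 against 0.0046 over all genes tested, but none was called by limma (0.515% of all genes were, 0.315% higher and 0.200% lower). Of all calls in this comparison 38.8% were lower, and 53.2% with equal library totals. At an unadjusted p under 0.05, 4 of the 10 passed, against 13.2% of all genes. edgeR called 0 and DESeq2 called 2, Egr1 and Dusp6, against 0.530% and 2.80% of all genes. The Egr1 difference was 0.41 (95% interval 0.23 to 0.59, adjusted p = 0.0637 from limma), with every GSK3368715 library above every MS023 library. Dusp6 differed by 0.22 (0.10 to 0.34, adjusted p = 0.126), Phlda1 by 0.15 (0.04 to 0.27) and Spry2 by 0.15 (0.01 to 0.29), also without overlap, which 21.4% of all genes showed. For the rest the interval of the difference held 0: Fosl1 -0.07 to 0.32, Spry4 -0.06 to 0.25, Dusp5 -0.20 to 0.28, Dusp4 -0.23 to 0.16, Etv4 -0.07 to 0.18 and Etv5 -0.05 to 0.20. These intervals leave room for differences of the size of the MS023 effect on Etv5 (-0.17).

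Averaged over the 10 genes, the log2 level relative to control was -0.16, -0.32 and -0.20 in the 3 shPrmt1 libraries, against 0.01, -0.01 and -0.01 in shControl. It was -0.29, -0.24 and -0.25 in MS023 and -0.14, -0.13 and -0.13 in GSK3368715, against -0.01, 0.03 and -0.02 in vehicle. Each treated library was below each of its controls on this average, which describes the libraries and was not tested. Set side by side, Egr1, Fosl1 and Spry4 were called lower both in the knockdown and with MS023, Dusp4 in the knockdown alone, and Spry2, Dusp5, Dusp6, Etv5 and Phlda1 with MS023 alone. These lists sort calls, not sizes of effect. Etv5, called with MS023 alone, had log2 fold changes of -0.22 in the knockdown and -0.17 with MS023. Whether the effects differ between the experiments was not tested.

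For the cascade itself 17 genes were tested, with median log2 fold changes of 0.051 in the knockdown, -0.0058 with MS023 and -0.0042 with GSK3368715. Map2k2, the gene of MEK2, fell in the knockdown (-0.39 ± 0.11, adjusted p = 0.0461) and with MS023 (-0.26 ± 0.06, 0.0108). The first of these calls was lost without any 1 of the shControl libraries or shPrmt1 replicate 3 (up to 0.161), and the second without MS023 replicate 2 (0.0518).

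Among growth factor and receptor genes, calls in the knockdown were all higher. Of the 18 on the list, 13 were tested in the knockdown, where 5 rose and 0 fell (median 0.16), against 7.50% and 7.17% of all genes. Of 14 tested with the inhibitors, 4 rose and 2 fell with MS023 (0.21), against 13.7% and 14.1% of all genes, and 2 rose and 2 fell with GSK3368715 (0.10), against 5.16% and 4.47%. Btc, which encodes the EGF-receptor ligand betacellulin, rose in all 3, from 47.5, 59.8 and 45.3 to 86.9, 108 and 83.7 normalized counts in the knockdown (log2 fold change 0.86 ± 0.18 (SE), adjusted p = 0.0172) and by log2 fold changes of 1.10 with MS023 and 0.64 with GSK3368715 (adjusted p = 0.00014 and 0.00776). The knockdown call was lost without shControl replicates 1 (0.0744) or 3 (0.0722). Hbegf, another ligand of that receptor, fell with both inhibitors (-0.94 ± 0.09 and -0.52 ± 0.09, adjusted p = 8.58e-05 and 0.00672) and had -0.11 in the knockdown (0.401). The receptor gene Fgfr1 rose in the knockdown from 53.7, 91.4 and 59.7 to 210.3, 175 and 182 normalized counts (log2 fold change 1.49 ± 0.21 (SE), adjusted p = 0.00283), and Pdgfrb, a receptor for platelet-derived growth factor, rose in all 3 (0.69, 0.40 and 0.64, adjusted p = 0.00268, 0.0177 and 0.00563), although with MS023 not without MS023 replicates 2 (0.0572) or 3 (0.0725). Egfr itself was below the filter in both experiments.

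Other feedback inhibitors split. Of 18 tested, 2 rose and 3 fell in the knockdown, 1 rose and 4 fell with MS023, and 1 rose and 2 fell with GSK3368715, with medians of 0.044, -0.04 and -0.032. Of all genes 14.7%, 27.9% and 9.64% were called in either direction, so that the 5 called with MS023 are a share close to that of all genes. Errfi1, an inhibitor of the EGF receptor, fell in all 3 and under every alternative. It had 4541, 4746 and 4549 normalized counts in shControl and 2861, 2897 and 2854 in shPrmt1 (log2 fold change -0.68 ± 0.05 (SE), adjusted p = 0.000202), and fell by 0.71 with MS023 and by 0.44 with GSK3368715 on the log2 scale (adjusted p = 0.000352 and 0.0134). Il17rd, which encodes the FGF-signaling inhibitor SEF, rose in all 3 (0.68, 0.65 and 0.63, adjusted p = 0.0139, 0.000249 and 0.00118), although not without shControl replicate 1 in the knockdown (0.0551). Dusp8, a phosphatase of JNK and p38, fell with MS023 (-0.64, adjusted p = 0.000508) and GSK3368715 (-0.40, 0.0167), the latter not without vehicle replicate 3 (0.057) or GSK3368715 replicate 2 (0.052). Dusp1, an immediate-early phosphatase gene, rose in the knockdown (log2 fold change 0.58 ± 0.12 (SE), adjusted p = 0.0137), but not without shControl replicates 1 (0.065) or 2 (0.0577).

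Of 23 tested immediate-early genes other than Egr1, 5 rose and 6 fell in the knockdown, 1 rose and 6 fell with MS023, and 0 rose and 5 fell with GSK3368715. Against 14.7%, 27.9% and 9.64% of all genes called, the share with MS023 was close to that of all genes. The medians were 0.15, -0.11 and -0.063. Fosb, an AP-1 subunit gene, had 193, 161 and 196 normalized counts in shControl and 76.6, 73.9 and 88.8 in shPrmt1 (log2 fold change -1.19 ± 0.14 (SE), adjusted p = 0.00137). It also fell with MS023 (-0.54, adjusted p = 0.0109) and with GSK3368715 (-0.46, 0.0478), the last a call lost under 13 of 18 alternatives. Among these were the fits without any 1 of the vehicle or GSK3368715 libraries or MS023 replicates 2 or 3 (adjusted p 0.0541 to 0.124). Egr3, a relative of Egr1, fell in the knockdown (log2 fold change -1.14 ± 0.18 (SE), adjusted p = 0.00469) and was not called with the inhibitors. Btg2, an antiproliferative gene, rose in the knockdown from 82.8, 77.0 and 71.9 to 187, 196 and 192 normalized counts (log2 fold change 1.30 ± 0.12 (SE), adjusted p = 0.000423), and so did Ccn2, the gene of connective tissue growth factor (log2 fold change 0.77 ± 0.09 (SE), adjusted p = 0.00146).

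Of 10 ETS factors, ternary complex factors and ERK-controlled repressors, 2 fell in the knockdown and 1 fell with MS023, with medians of -0.11 and 0.041, where 14.7% and 27.9% of all genes were called. With GSK3368715 limma called 0, with 2 at an unadjusted p under 0.05, 0 by edgeR and 1 by DESeq2 (median 0.048), against 9.64% of all genes by limma. Cic, the gene of Capicua, fell in the knockdown (log2 fold change -0.48 ± 0.12 (SE), adjusted p = 0.0331), but not without shControl replicates 1 or 3 or shPrmt1 replicate 3 (0.0922 to 0.126). Elk1, a ternary complex factor gene that shares 76 exon bases with Uxt on the same strand, fell there as well (log2 fold change -0.37 ± 0.10 (SE), adjusted p = 0.0427), a call lost under 7 of 14 alternatives, including the fits without any 1 of the libraries other than shPrmt1 replicate 2 (adjusted p 0.0676 to 0.172). Elk3, a related gene, fell with MS023 (log2 fold change -0.30 ± 0.09 (SE), adjusted p = 0.0299), a call lost without vehicle replicates 2 or 3 or any 1 of the MS023 libraries (up to 0.0878). Its log2 fold change was -0.19 without vehicle replicate 2.

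Later targets of ERK output were tested for 9 of 15 genes in the knockdown, where 2 rose and 1 fell, and for 11 with the inhibitors, where 0 rose and 4 fell with MS023 and 0 rose and 2 fell with GSK3368715. Their medians were 0.20, -0.12 and -0.13, and the shares of all genes called were 14.7%, 27.9% and 9.64%. Plaur, the urokinase receptor gene, fell with both inhibitors (-0.55 ± 0.08 and -0.38 ± 0.08, adjusted p = 0.000656 and 0.0129) and had -0.03 in the knockdown (adjusted p = 0.878). The cytokine gene Lif fell with MS023 (-0.39, 0.00617) and with GSK3368715 (-0.33, 0.0355), the latter not without vehicle replicate 3, MS023 replicate 2 or any 1 of the GSK3368715 libraries (adjusted p 0.0519 to 0.125). The chromatin protein genes Hmga1 and Hmga2 were called in the knockdown in opposite directions, Hmga1 lower (log2 fold change -0.61 ± 0.13 (SE), adjusted p = 0.0174) and Hmga2 higher (log2 fold change 0.49 ± 0.06 (SE), adjusted p = 0.00205). Hmga1 lost its call without shControl replicates 1 (0.077) or 3 (0.0747). The scatter of pathway genes sets the knockdown beside MS023.

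**Figure D5:**
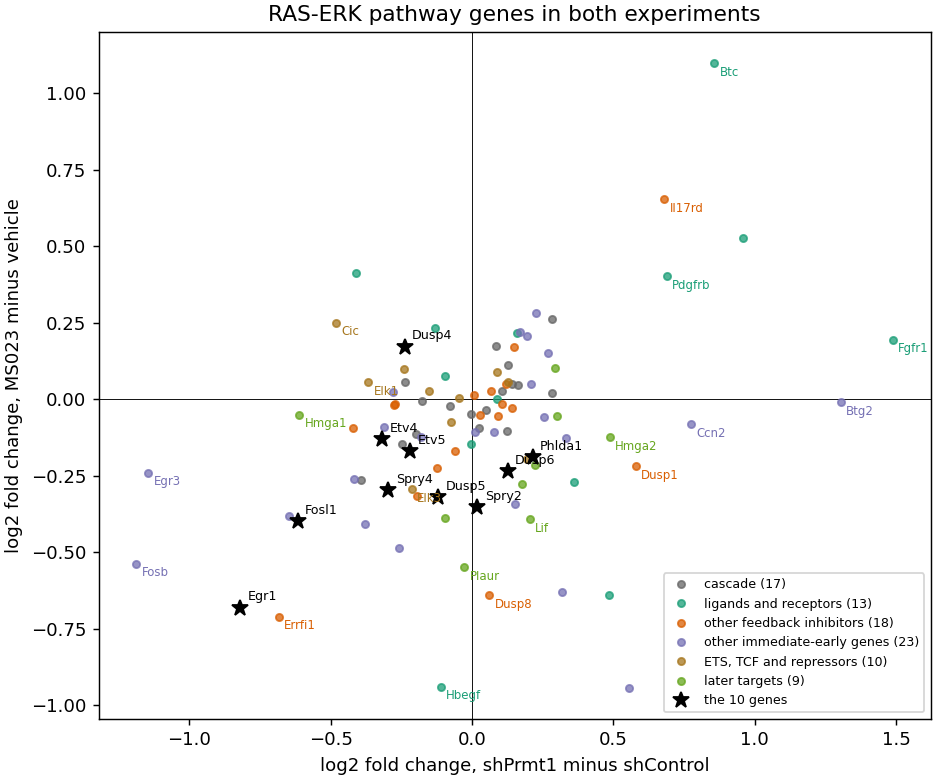
Log2 fold change in shPrmt1 against shControl (horizontal axis) and in MS023 against vehicle (vertical axis) for the 10 genes (stars) and the genes of the 6 pathway lists tested in both fits (colored points, with their number in the legend). Egr1, Fosl1, Fosb and Errfi1 lie at the lower left and Btc, Il17rd and Pdgfrb at the upper right.

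Of the 10 genes, Egr1 had the largest changes over the 3 comparisons with controls, with a root mean square log2 fold change of 0.636, rank 327 of 10174 genes compared. The genes nearest to it in these 3 log2 fold changes were Slc35a5 (distance 0.0605), Arhgap33 (0.10), Sec1 (0.121), Hcn2 (0.142) and Rfesd (0.157). Sec1 overlaps Ntn5 on the other strand. The sources used here do not give the strand setting of the counting, and several of the 10 genes share exon bases with an antisense gene. Fosl1 shares 1163 with Ccdc85b, Phlda1 727 with Gm28592 and Dusp5 547 with AC137853.2. Among the genes named from the pathway lists by largest change, Ccn2 shares 665 with Gm15270 and Elk3 316 with Cdk17, also antisense. Summed with Ccdc85b, which had a mean of 96.9 normalized counts in shControl and 335 in vehicle, Fosl1 kept both its calls (log2 fold change -0.61 in the knockdown, adjusted p = 0.0399, and -0.38 with MS023, adjusted p = 0.00753, from limma). Ccdc85b alone had log2 fold changes of the same sign, -0.46 in the knockdown and -0.13 with MS023 (adjusted p = 0.197 and 0.453 from limma). Phlda1, Dusp5, Ccn2 and Elk3 were not summed with their antisense genes. Etv5 has a near-identical copy, Gm4798, which was at 0 in the knockdown experiment and at most at 2.15 normalized counts in the other.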

How the data were processed

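Messenger RNA libraries (Kapa mRNA Hyper prep, paired-end reads of 150 bases) were made from 5 groups of 3 replicates, grouped by their titles. The deposited values are a normalized signal: the authors quantified reads with Salmon 1.4.0 on mm10 and divided gene counts by DESeq2 size factors, separately for each experiment. The DESeq2 version, annotation release and strand setting are not given in the sources used here. Whole reads could be recovered for 100% of values, within 0.001 reads. The 3 deposited tables of the authors' own fold changes and p-values were not used.

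Tests were run on log2(normalized count + 1), a scale that understates the change of low genes, for genes that reached 10 normalized counts in 3 libraries or more. The tool was limma 3.58.1 (R 4.3.3, eBayes with a trend). Its tests were two-sided, and p-values were adjusted over all genes of a fit by the Benjamini-Hochberg method. The 9 inhibitor libraries entered a single fit. edgeR 4.0.16 (quasi-likelihood, TMM) and DESeq2 1.42.0 were run on the recovered reads as alternatives. They called 1712 and 2151 genes in the knockdown, 3620 and 4026 with MS023, and 1242 and 1794 with GSK3368715, against 1684, 3625 and 1254 by limma. The scripts were tested on simulated data. P-values set a difference between groups against the spread between the 3 replicates within each group. That spread was pooled over all groups of a fit and moderated across genes. Other alternatives were the pseudocount, the filter, equal totals, only the groups compared, a replicate block and each library left out. The 10 genes and the pathway lists were chosen with earlier results of these data known. From each list at most 4 genes were named: those called against a control whose higher group had a mean of 50 normalized counts or more, by largest absolute log2 fold change. Likeness to Egr1, of the 10 genes that with the largest changes, was the distance between log2 fold changes in the 3 comparisons with controls, over the genes tested in both fits. Some results for genes of the cascade are not reported here. No batch is given in the labels. Exon lengths and overlaps came from GENCODE vM21 (mm10), near-identical transcripts from blastn 2.17.0 (at least 95% identity over 30% of the transcript), and promoters from RefSeq.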

Additional observations from a re-analysis of the deposited data

Results flagged for a closer look

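For 3 of the 10 genes, every shPrmt1 library lay on one side of the mean of its controls and every MS023 library on the other side of the vehicle mean, a contrast across separately normalized experiments that was not tested. Log2 fold changes were -0.24 in the knockdown and 0.17 with MS023 for Dusp4, 0.13 and -0.24 for Dusp6, and 0.22 and -0.19 for Phlda1, and neither group overlapped with its controls. Cic lay likewise, without overlap (-0.48 and 0.25). Dusp1 (0.58 and -0.22) and Elk1 (-0.37 and 0.06) were on opposite sides of the control means only, since their MS023 libraries lay inside the range of the vehicle libraries (adjusted p = 0.3 and 0.513 with MS023 from limma). Libraries of both inhibitors lay on the opposite side of the control mean to the knockdown for Hmga2 (0.49, against -0.12 with MS023 and -0.13 with GSK3368715) and for Lif (0.20, against -0.39 and -0.33), where the knockdown groups of Lif overlapped. Ereg and Ccn1, chosen after their values were seen, were called in opposite directions by knockdown and inhibitors: Ereg, the epiregulin gene, at 0.49, -0.64 and -0.30 (adjusted p = 0.0234, 0.000164 and 0.022 from limma), and Ccn1, a matricellular immediate-early gene, at 0.32, -0.63 and -0.32 (0.011, 4.85e-05 and 0.00528). Both knockdown calls were lost without shControl replicates 1 or 3 (adjusted p up to 0.0956 for Ereg and 0.0657 for Ccn1), and the Ereg call with GSK3368715 without vehicle replicate 3 or GSK3368715 replicates 1 or 2 (up to 0.0673). These differences were not tested either. For Ccn1 the difference between the inhibitors was called, at 0.31 ± 0.05 (SE) for GSK3368715 minus MS023 (adjusted p = 0.0372 from limma), a call lost under 10 of 18 alternatives. Among these were the fits without vehicle replicate 3 or any 1 of the MS023 and GSK3368715 libraries (adjusted p 0.0586 to 0.165).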

How the results depend on the processing

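In the knockdown 4 of the 10 genes were called under each of the pseudocounts, filters and totals tried and by edgeR, 5 by DESeq2, and 1 to 5 with 1 library left out. With MS023 the number was 5 with equal library totals, 6 without a filter and 5 to 8 with 1 library left out, and with GSK3368715 it was 3 by DESeq2 and 0 to 1 with 1 library left out. For GSK3368715 minus MS023 it was 2 by DESeq2 and 0 in each fit without a library. The replicate numbers were not taken to pair the samples, because same-numbered shControl and shPrmt1 samples correlated at 0.0614, 0.116 and 0.0813 in their deviations, and not all inhibitor pairs correlated positively. Each knockdown sample correlated best with its own number, a hint from the data. With the replicate block, 6 of the 10 genes were called in the knockdown (Etv5 and Phlda1 were added, adjusted p = 0.0403 and 0.0284 from limma), 6 with MS023, 0 with GSK3368715 and 0 between the inhibitors, and 2671, 3219, 860 and 4 genes in all. The log2 fold changes that changed sign were of genes not called in that comparison. With equal totals these were Dusp6 (6.228e-05) and Dusp1 (0.0052, and 0.0014 by edgeR) with GSK3368715, Plaur (0.0056) in the knockdown and Btg2 (0.024) with MS023. With 1 library left out, the range was -0.024 to 0.069 for Spry2 and -0.10 to 0.083 for Plaur in the knockdown, and -0.13 to 0.10 for Btg2 and -0.17 to 0.021 for Ccn2 with MS023. With GSK3368715 it was -0.066 to 0.017 for Dusp6, -0.064 to 0.0050 for Phlda1, -0.16 to 0.11 for Dusp1, -0.093 to 0.36 for Egr3 and -0.045 to 0.016 for Elk1. For GSK3368715 minus MS023 it was -0.15 to 0.041 for Dusp4 and -0.0085 to 0.13 for Dusp5. The causes of these changes were not tested. Over all genes, the knockdown calls fell from 1684 to 652, 883 and 723 without shControl replicates 1, 2 and 3 and to 1072 without shPrmt1 replicate 3. MS023 calls fell from 3625 to 2409 without MS023 replicate 2. GSK3368715 calls fell from 1254 to 586, 757 and 778 without vehicle replicate 3, GSK3368715 replicate 1 and GSK3368715 replicate 3, and to 597 with only the groups compared. Calls between the inhibitors, 67, ran from 2 to 114 with 1 library left out and were 38 without a filter and 365 by DESeq2. At a depth of at least 17284091 reads on genes, the lowest level among the 10 genes was 441 normalized counts, for Dusp5 in shPrmt1 replicate 2.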

Other observations

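A pair of immediate-early genes, chosen after their values were seen, was called lower in all 3 comparisons. Maff, a small MAF transcription factor gene, had 651, 584 and 598 normalized counts in shControl and 505, 423 and 483 in shPrmt1 (log2 fold change -0.38 ± 0.09 (SE), adjusted p = 0.0326 from limma). It had 2377, 2348 and 2226 in vehicle, 1653, 1823 and 1759 in MS023 and 1594, 1908 and 1699.8 in GSK3368715, with log2 fold changes of -0.41 and -0.42 (adjusted p = 0.00269 and 0.007 from limma). Its groups did not overlap with controls in any of the 3. Nr4a1, a nuclear receptor gene, had log2 fold changes of -0.42, -0.26 and -0.33 (adjusted p = 0.0454, 0.0433 and 0.0385 from limma), calls lost under 7 of 14, 9 of 18 and 9 of 18 alternatives. In the fits without 1 library that lost them, the adjusted p ran up to 0.172 (without shControl replicate 3), 0.141 (without MS023 replicate 1) and 0.125 (without vehicle replicate 3). The knockdown call of Maff was lost without any 1 of the shControl libraries or shPrmt1 replicate 3 (adjusted p 0.0676 to 0.14), and its inhibitor calls under none of 18 alternatives.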
